A study of Glycine max with 63 samples.

Results

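POWR1 (GLYMA_20G085100) and ST05 (GLYMA_05G244100) are soybean genes known from the mapping of quantitative trait loci for seed weight, protein and oil. Both rows were taken by identifier from tables of 55,899 named rows, so 2 of 55,899 rows are described here, each in 63 RNA-seq libraries. The study followed soybean seeds with Arabidopsis transgenes for seed oil, AtWRI1, a transcription factor that drives fatty acid synthesis, and AtDGAT, the row of the DGAT1 transgene, whose enzyme completes triacylglycerols. Field seeds came from the cultivar Thorne (WT), which carries no transgene, and from the lines W-1 and WD-1 at the stages R5, R5/6 and R6, which run from early to full seed filling. Greenhouse embryos, peeled of seed coat and endosperm, were labelled Thorne (WT), WD-1 or WD-2 and 24, 27, 30 or 33 DAP (days after pollination). There were 9 groups in the field and 12 in the greenhouse, with 3 libraries in each. Per the labels' protocols, RNA of a field library came from 4 pooled seeds, and RNA of a greenhouse library from a single embryo. The protocols name WD-1 and WD-2 for the field trials, whereas the field samples are labelled W-1 and WD-1, and the labels do not say which transgenes a line carries. The protocols call the transgenic events homozygous; no source used here gives the promoters that drive the transgenes or the number of insertions.

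POWR1 encodes a protein with a CCT domain, a motif shared with CONSTANS and other regulators of transcription, and is known as a gene whose alleles raise seed weight and oil while lowering protein, or the reverse. In many cultivated soybeans its CCT domain is interrupted by a transposon. ST05 belongs to the MOTHER OF FT AND TFL1 (MFT) branch of the phosphatidylethanolamine-binding protein family, small proteins related to the flowering signal FT, and is known for natural alleles that change seed thickness and size as well as oil and protein content. MFT proteins of Arabidopsis act in seeds, in the control of germination by abscisic acid.

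Totals ran from 1.17 to 36.2 M counts per field library (1 M is 1,000,000), 10 of the 27 being under 10 M, and from 3.02 to 23.6 M per greenhouse library, 5 of the 36 being under 10 M. ST05 was read with whole-number counts (within 1e-06) in 63 of 63 libraries, from 363 to 26,905 in the field and from 1238 to 17,682 in the greenhouse. POWR1 was read thinly, with 0 to 142 estimated counts in the field and 5.90 to 133 in the greenhouse, and 11 field libraries held fewer than 10. Each POWR1 count above 0 was fractional, as the counting tool writes where a read matches more than 1 sequence, so POWR1 values may include reads of another gene. Of the genes with any count, 30.4% were whole, by the same tolerance, in all 63 libraries. Levels below are counts per 1,000,000 after TMM scaling (TMM-normalized CPM), which follows a gene across libraries and does not compare genes of different length. Changes are log2 fold changes from edgeR's quasi-likelihood test with the standard error (SE), and a change passed where its p, adjusted by Benjamini-Hochberg over all genes of the experiment, was under 0.05. In bulk seeds or embryos, fewer cells of a type and less RNA per cell cannot be told apart.

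In the field AtWRI1 was at 0 counts in 8 of 9 WT libraries (0.398 CPM of all counts in the other) and was read in 9 of 9 W-1 and 9 of 9 WD-1 libraries. AtDGAT was at 0 in 9 of 9 WT and 9 of 9 W-1 libraries and was read in 9 of 9 of WD-1. In the greenhouse, the presence or absence of transgene reads went against the WT, WD-1 or WD-2 label of 13 of 36 libraries. The deposited greenhouse tables also carry a code in their names (Wt, G or R, with T2 to T5), and the 3 libraries of each code were the 3 libraries of 1 labelled group. In the coded Wt libraries AtWRI1 did not pass 0.408 CPM of all counts, while it reached 320 in G and lay between 39.0 and 324 in R. The exception was G T5 replicate 2, with no transgene read in 5.82 M counts. What the codes stand for is not given in the sources used here, so greenhouse groups are named by code with the labelled group beside it, and a labelled group is called "libraries labelled" as such.

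ST05 climbed steeply between R5 and R5/6 in field seeds of all 3 genotypes and did not change past the threshold between R5/6 and R6. In WT the 3 libraries read 117, 282 and 117 TMM-normalized CPM at R5. They read 636, 648 and 765 at R5/6 and 655, 663 and 858 at R6. The WT libraries of R5 lay below every WT library of the later stages, and those of R5/6 and R6 overlapped. In W-1 they read 114, 78.3 and 114 at R5. They rose to 897, 580 and 564 at R5/6 and stood at 898, 1192 and 752 at R6. In WD-1 they read 98.8, 232 and 168 at R5, and the range of the lines at R5 fell within or below that of WT. They read 282, 487 and 614 at R5/6 and 774, 917 and 589 at R6. Across genotypes, the highest R5 library, WT replicate 2, and the lowest R5/6 library, WD-1 replicate 1, both stood at 282.

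From R5 to R6, ST05 (GLYMA_05G244100) rose 4.23-fold in WT (log2 2.08, SE 0.36, adjusted p = 9.60e-05), beside 33.0% of all genes past the threshold in that comparison. It rose 9.30-fold in W-1 (log2 3.22, SE 0.38, adjusted p = 4.85e-07), where 41.1% of genes passed, and 4.57-fold in WD-1 (log2 2.19, SE 0.37, adjusted p = 4.91e-05), where 35.6% passed. A large share of the genes in these seeds thus moved over the same interval. Most of the difference was in place by R5/6. Between R5 and R5/6 the rise was 3.98-fold in WT (adjusted p = 0.000292; 23.7% of genes passed) and 6.68-fold in W-1 (adjusted p = 4.10e-05; 20.3% passed). In WD-1 it was 2.77-fold (adjusted p = 0.0125; 7.44% passed), and this call was lost without WD-1 R5 replicate 1 (log2 1.20, adjusted p = 0.0738), R5/6 replicate 2 (1.43, 0.0544) or R5/6 replicate 3 (1.21, 0.0729), with libraries of at least 10 M alone (1.23, 0.182), and with the compared libraries alone (1.47, 0.0509). From R5/6 to R6 the log2 change was 0.09 in WT (SE 0.35, adjusted p = 0.936; 7.07% of genes passed), 0.48 in W-1 (SE 0.35, adjusted p = 0.450; 8.90% passed) and 0.72 in WD-1 (SE 0.35, adjusted p = 0.170; 15.1% passed). TMM factors fell with stage, from a median of 1.41 at R5 to 0.718 at R6, as the share of counts in the 10 highest genes went from a median of 22.6% to 42.7%. Without scaling, the R6 against R5 change of ST05 was smaller, at 1.06 in WT (adjusted p = 0.0113), 1.98 in W-1 (3.38e-05) and 1.47 in WD-1 (0.00131), while the median of all genes moved to -1.09, -1.26 and -0.81. Relative to those medians ST05 was higher by 2.14, 3.24 and 2.28. In WT, 5835 genes rose and 6992 fell with scaling, against 1362 and 20,815 without.

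**Figure D1:**
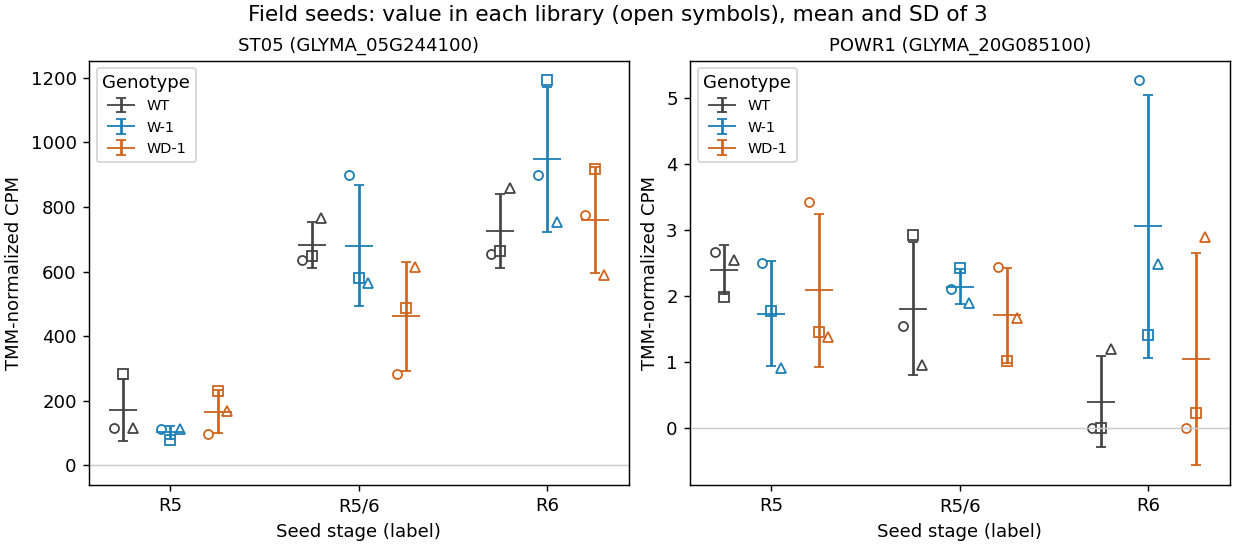
TMM-normalized CPM of ST05 (left) and POWR1 (right) in each field library by seed stage, with genotype in colour, replicates 1, 2 and 3 as circle, square and triangle, and bars for the mean and SD of 3 libraries. ST05 lies at or below 282 at R5 and reaches 1192 at R6, while POWR1 at R6 spreads from 0 to 5.27.

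The level of ST05 in the lines did not differ from WT past the threshold at any stage. Averaged over stages, the log2 difference from WT was -0.12 in W-1 (95% interval -0.54 to 0.29, adjusted p = 0.891; 2.53% of genes passed) and -0.18 in WD-1 (95% interval -0.60 to 0.23, adjusted p = 0.787; 3.05% passed). At R5 it was -0.75 in W-1 (SE 0.35, unadjusted p = 0.0424, adjusted p = 1), where 0.0385% of genes passed, and -0.05 in WD-1, where 0.177% passed. W-1 at R5 was the lowest of the 9 group means, at 102 ± 20.6 TMM-normalized CPM (SD, n = 3), and its highest library (114) lay just under the lowest of WT (117). At R5/6 the difference was -0.00 in W-1 (0.123% of genes passed) and -0.57 in WD-1 (1.70% passed). At R6 it was 0.38 in W-1 (4.44% passed) and 0.07 in WD-1 (3.24% passed). WD-1 against W-1 gave -0.06 over stages (0.555% of genes passed), 0.71 at R5 (0.136%), -0.56 at R5/6 (0.162%) and -0.32 at R6 (0.337%). Of these 12 comparisons of ST05, 0 passed by edgeR or DESeq2 and 1 had an unadjusted p under 0.05. The rise from R5 to R6 was larger in W-1 than in WT by 1.14 (SE 0.50, unadjusted p = 0.0305, adjusted p = 0.304; 1.69% of genes passed) and in WD-1 by 0.11 (SE 0.49, adjusted p = 1; 1.22% passed), so neither line's rise was shown to differ from that of WT.

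POWR1 had no stage change past the threshold, and its replicates disagreed most at R6. In WT it read 2.67, 1.98 and 2.55 TMM-normalized CPM at R5. It read 1.55, 2.92 and 0.949 at R5/6, and 0, 0 and 1.19 at R6. The WT libraries at 0 held 2.51 and 1.17 M counts, where a count of 0 allows up to 1.19 and 2.56 CPM of all counts, so in the shallower of them a level like the mean of WT at R5/6, 1.89 CPM, could not be told from 0. In W-1 it read 2.51, 1.77 and 0.913 at R5 and 2.10, 2.42 and 1.90 at R5/6. At R6 the W-1 libraries read 5.27, 1.40 and 2.49, all above the 3 WT libraries of that stage. In WD-1 it read 3.43, 1.45 and 1.37 at R5, and 2.44, 1.01 and 1.66 at R5/6. The WD-1 libraries at R6 stood apart from each other, at 0, 0.223 and 2.89, with the deepest of them (24.2 M counts) at 0.223.

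From R5 to R6 the log2 change of POWR1 (GLYMA_20G085100) was -1.46 in WT (SE 0.78, adjusted p = 0.155; 33.0% of genes passed), 1.04 in W-1 (SE 0.66, adjusted p = 0.214; 41.1% passed) and -1.54 in WD-1 (SE 0.84, adjusted p = 0.153; 35.6% passed). Single libraries moved each of these values. Without WT R6 replicate 3 the remaining WT libraries of R6 are at 0, so no fold is given. In W-1 the change was 0.11 without R6 replicate 1 and 0.66 without R5 replicate 3. In WD-1 it was -0.45 without R6 replicate 2 and -0.92 without R5 replicate 1, neither past the threshold. Without scaling the change was -2.51 in WT (adjusted p = 0.0147) and -2.21 in WD-1 (adjusted p = 0.0465), which is -1.43 and -1.40 relative to the median of all genes. The WD-1 change passed at -3.46 without R6 replicate 3 (adjusted p = 0.00609). It was -3.44 with libraries of at least 10 M alone, a setting that keeps a single WD-1 library at R6, replicate 2. From R5 to R5/6 the log2 change was -0.41 in WT, 0.45 in W-1 and -0.34 in WD-1. From R5/6 to R6 it was -1.05, 0.59 and -1.20, in the same order. The R5/6 to R6 change of WT was -0.52 without R5/6 replicate 2, and that of W-1 turned to -0.33 without R6 replicate 1 and reached 1.03 without R6 replicate 2. That of WD-1 ran from -3.12 without R6 replicate 3 (adjusted p = 0.0263) to -0.11 without R6 replicate 2. When 1 library was left out, the R5 to R5/6 change lay within -0.91 to -0.10 (WT), 0.068 to 0.66 (W-1) and -0.87 to 0.27 (WD-1).

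Between genotypes, POWR1 (GLYMA_20G085100) was 3.65-fold higher in W-1 than in WT at R6 (log2 1.87, SE 0.81, unadjusted p = 0.0289, adjusted p = 0.218) and 4.27-fold lower in WD-1 than in W-1 (log2 -2.09, SE 0.85, unadjusted p = 0.0201, adjusted p = 0.382), and neither passed. The R6 against R5 change of W-1 exceeded that of WT by 2.50 (SE 1.02, unadjusted p = 0.0215, adjusted p = 0.261), and that of WD-1 differed from WT by -0.09 (SE 1.10, adjusted p = 1). The values at R6 turned on single libraries. Without W-1 R6 replicate 1 (5.27 TMM-normalized CPM) the difference of W-1 from WT was 0.95, that of WD-1 from W-1 was -1.15 and the excess of the W-1 change over WT was 1.58. WD-1 against W-1 was -1.001 without WD-1 R6 replicate 2 and -4.01 without replicate 3 (adjusted p = 0.0663). The WD-1 change less that of WT ran from -2.01 without WD-1 R6 replicate 3 to 0.998 without replicate 2. It was -2.42 with libraries of at least 10 M alone, which keep a single R6 library in WT and in WD-1. Without WT R6 replicate 3 the WT group at R6 is at 0, and no fold against it is given. These values rest on few counts, since the 3 WT libraries at R6 held 22.1 estimated counts together and those of WD-1 held 12.4, against 123 in W-1. Averaged over stages the log2 difference from WT was 0.49 in W-1 (95% interval -0.35 to 1.32, adjusted p = 0.670) and -0.15 in WD-1 (95% interval -1.04 to 0.75, adjusted p = 0.973). The first was 0.18 without W-1 R6 replicate 1, and the second ran from -0.79 without WD-1 R6 replicate 3 to 0.22 without replicate 2, again leaving aside WT R6 replicate 3. At R5 and R5/6 the log2 differences of the lines from WT lay between -0.63 and 0.22, and between -0.84 and 0.73 when 1 library was left out. Over the 23 field comparisons of POWR1, in which 0.0385% to 41.1% of all genes passed, 0 passed by edgeR or DESeq2, and 3 had an unadjusted p under 0.05.

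**Figure D2:**
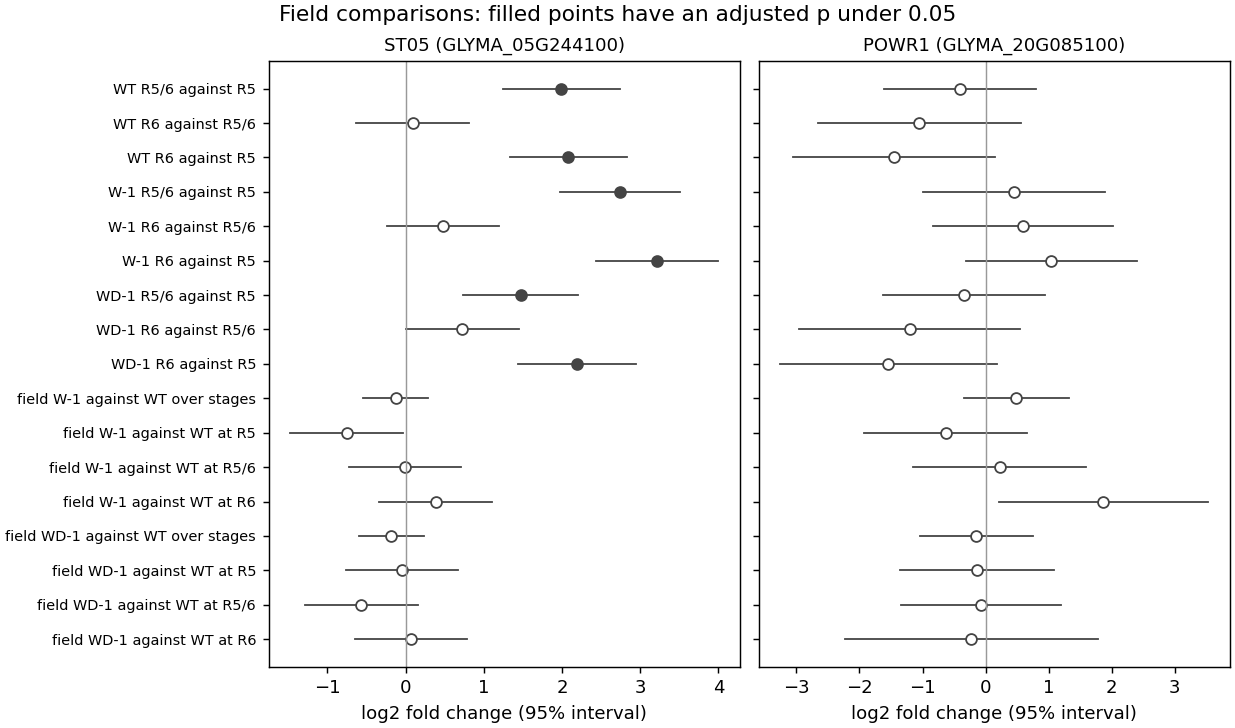
Log2 fold change (x axis, point) with its 95% interval (line) for each field comparison (y axis), of ST05 (left) and POWR1 (right). The filled points, with an adjusted p under 0.05, are the ST05 changes from R5 to R5/6 and from R5 to R6 in all 3 genotypes, from 1.47 to 3.22; the POWR1 intervals are wider and none of its points is filled.

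Libraries of the same group also differed along the first principal component of the other genes tested. This component held 48.8% of the variance among field libraries. It ran from 108 in the R5 library at its upper end to -113 in the R6 library at its lower end. WT R5 replicate 2, the WT R5 library with the highest ST05 (282), had a component value of 95.5 against 108 and 104 in the other WT R5 libraries (ST05 117 in each). WD-1 R5/6 replicate 1, with the lowest ST05 of that stage (282), stood at 51.4, against 14.0 and -15.0 in the libraries with 487 and 614. Of the 27 pairs of libraries within a group, the library nearer the R6 end had the higher ST05 in 20 pairs and the lower POWR1 in 21 pairs, with 1 POWR1 pair tied. By stage the ST05 count was 8 of 9 pairs at R5, 6 of 9 at R5/6 and 6 of 9 at R6, and the POWR1 count was 8 of 9, 6 of 9 and 7 of 9. How many other genes follow the component as closely within groups was not computed, so these counts do not set the 2 genes apart. The component was computed from the genes tested in the field, leaving out these 2 genes and the transgenes. The part that position along it plays in the group differences was not tested.

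**Figure D3:**
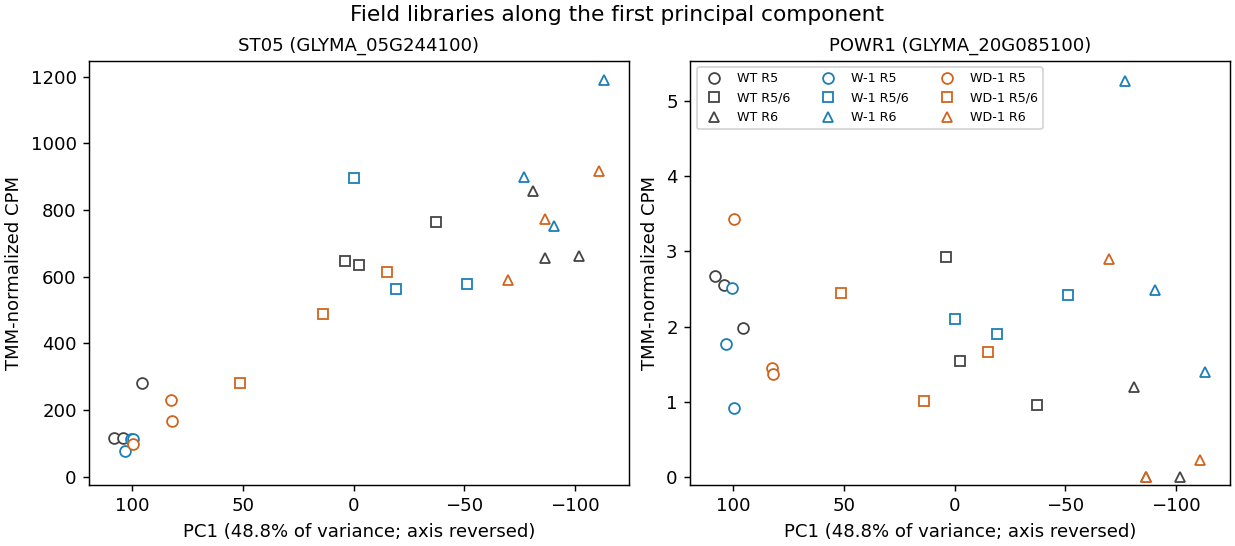
TMM-normalized CPM of ST05 (left) and POWR1 (right) in the 27 field libraries against the first principal component of the other genes tested. The axis is drawn with the R6 end at the right, and colour gives the genotype and symbol the stage. ST05 runs from 78.3 at the R5 end to 1192 near the R6 end, with the R5/6 libraries spread between 51.4 and -51.4 on the component.

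Ranked by group mean, the field levels of ST05 ran from 947 ± 224 TMM-normalized CPM (SD, n = 3) in W-1 at R6 to 102 ± 20.6 in W-1 at R5. The other R6 groups followed W-1, WD-1 at 760 ± 165 and WT at 725 ± 115. Then came R5/6, with WT at 683 ± 71.1, W-1 at 680 ± 188 and WD-1 at 461 ± 168, and R5, with WT at 172 ± 95.3 and WD-1 at 166 ± 66.6. Of the 8 neighbouring pairs in that order, 7 overlapped in their libraries. WD-1 at R5/6 and WT at R5 did not overlap only by a narrow margin, with nearest libraries at 281.9 and 281.6. For POWR1 the order ran from 3.05 ± 2.00 in W-1 at R6, over 2.40 ± 0.368 in WT at R5, to 1.04 ± 1.61 in WD-1 and 0.398 ± 0.690 in WT at R6. All 8 of its neighbouring pairs overlapped.

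In the greenhouse embryos the ST05 (GLYMA_05G244100) level spanned 3.20-fold between group means, with the lowest group in each code at T2. The Wt T2 libraries (labelled WT, 24 DAP) read 271, 251 and 284 TMM-normalized CPM. Wt T3 (WD-1, 24 DAP) read 390, 441 and 421, Wt T4 (WD-2, 24 DAP) 398, 419 and 546, and Wt T5 (WT, 27 DAP) 455, 352 and 462. The T2 libraries lay below all 9 later Wt libraries, which overlapped each other. The rise from T2 to T3 was 1.55-fold (log2 0.64, SE 0.20, adjusted p = 0.0273; 12.3% of genes passed), and it was lost without any 1 of Wt T2 replicates 1, 2 and 3 or Wt T3 replicates 2 and 3 (log2 0.64, 0.59, 0.68, 0.60 and 0.63; adjusted p 0.0582 to 0.112) and with libraries of at least 10 M alone (0.63, 0.0618). From T2 to T5 it was 1.57-fold (log2 0.65, SE 0.20, adjusted p = 0.0113; 28.0% of genes passed), lost without Wt T2 replicate 2 (log2 0.61, adjusted p = 0.0528) or Wt T5 replicate 3 (0.57, 0.0581). The steps from T3 to T4 (log2 0.12; 2.12% of genes passed) and from T4 to T5 (log2 -0.10; 0.00868% passed) did not pass.

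The coded G libraries showed the widest ST05 swing. G T2 (labelled WD-1, 27 DAP) read 185, 216 and 168 TMM-normalized CPM and G T3 (WD-2, 27 DAP) 603, 610 and 586. The G T3 libraries, with an SD of 12.3 around 600, thus stood at 3 times the T2 level. G T4 (WT, 30 DAP) read 379, 572 and 519, and G T5 (WD-1, 30 DAP) 203, 262 and 432. From T2 to T3 ST05 (GLYMA_05G244100) rose 3.16-fold (log2 1.66, SE 0.20, adjusted p = 1.61e-07; 30.8% of genes passed). It then changed by -0.29 from T3 to T4 (adjusted p = 0.408; 5.75% passed) and fell by 0.71 from T4 to T5 (adjusted p = 0.0160; 10.5% passed). That fall was lost without G T4 replicate 2 (-0.58, adjusted p = 0.102), G T5 replicate 1 (-0.50, 0.155) or G T5 replicate 2 (-0.62, 0.0941), and was -1.08 without G T5 replicate 3. From T2 to T5 the net change was 0.66 (adjusted p = 0.0120; 24.6% passed), lost without G T2 replicate 3 (0.58, 0.0634) or G T5 replicate 3 (0.29, 0.279). With the compared libraries alone neither the fall (-0.69, adjusted p = 0.217) nor the net rise (0.63, 0.129) passed, and with libraries of at least 10 M the fall did not pass (-0.62, 0.0935). G T5 replicate 2 is the library with no transgene count.

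In the coded R libraries, R T2 (labelled WD-2, 30 DAP) read 257, 250 and 284 TMM-normalized CPM for ST05 and R T3 (WT, 33 DAP) 418, 547 and 538. R T4 (WD-1, 33 DAP) read 405, 436 and 442, and R T5 (WD-2, 33 DAP) 649, 623 and 551. R T2 lay below and R T5 above every other R library. The rise from T2 to T5 was 2.31-fold (log2 1.21, SE 0.20, adjusted p = 9.78e-05; 14.6% of genes passed), of which 1.90-fold lay between T2 and T3 (log2 0.93, SE 0.20, adjusted p = 0.00569; 2.58% passed). From T3 to T4 it changed by -0.23, in a comparison with 0% of genes past the threshold by edgeR, 1811 at an unadjusted p under 0.05 and 1 by DESeq2. From T4 to T5 it changed by 0.51 (unadjusted p = 0.0140, adjusted p = 0.133; 3.75% passed).

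Between codes, ST05 (GLYMA_05G244100) did not differ past the threshold when averaged over the 4 times, at -0.09 for G against Wt (SE 0.10, adjusted p = 0.458; 46.5% of genes passed) and 0.17 for R against Wt (SE 0.10, adjusted p = 0.136; 60.6% passed). At T5 G was 1.41-fold lower than Wt (log2 -0.50, SE 0.20, adjusted p = 0.0475; 32.5% passed) and R 1.44-fold higher (log2 0.52, SE 0.20, adjusted p = 0.0354; 35.0% passed). R exceeded G at that code by 2.03-fold (log2 1.02, SE 0.20, adjusted p = 0.000403; 18.6% passed), with the 3 R libraries (551 to 649) above the 3 G libraries (203 to 432). This R against G comparison was added after values of these data were seen and was made at T5 only. The G call was lost without Wt T5 replicate 1 (-0.44, adjusted p = 0.133) or 3 (-0.44, 0.142) or G T5 replicate 1 (-0.28, 0.311) or 2 (-0.41, 0.177), and the difference was -0.87 without G T5 replicate 3. The R call was lost without Wt T5 replicate 1 (0.58, 0.0507) or 2 (0.40, 0.162) or R T5 replicate 1 (0.47, 0.102) or 2 (0.50, 0.0966). Both calls were also lost with no filter on low counts (-0.51, 0.0680, and 0.50, 0.0696) and with the compared libraries alone (-0.47, 0.233, and 0.55, 0.0629), and the G call with libraries of at least 10 M (-0.41, 0.175). At the other times G differed from Wt by -0.50 at T2 (adjusted p = 0.101; 10.1% passed), 0.52 at T3 (adjusted p = 0.0528; 21.3%) and 0.11 at T4 (27.7%). The T2 difference passed by the DESeq2 test (adjusted p = 0.0476) and with the compared libraries alone (0.0170), and the T3 difference by the DESeq2 test (0.0311), with the compared libraries alone (0.00128) and with a replicate block (0.0408). R differed from Wt by -0.03 at T2 (20.0% passed), 0.26 at T3 (29.5%) and -0.09 at T4 (40.9%).

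**Figure D4:**
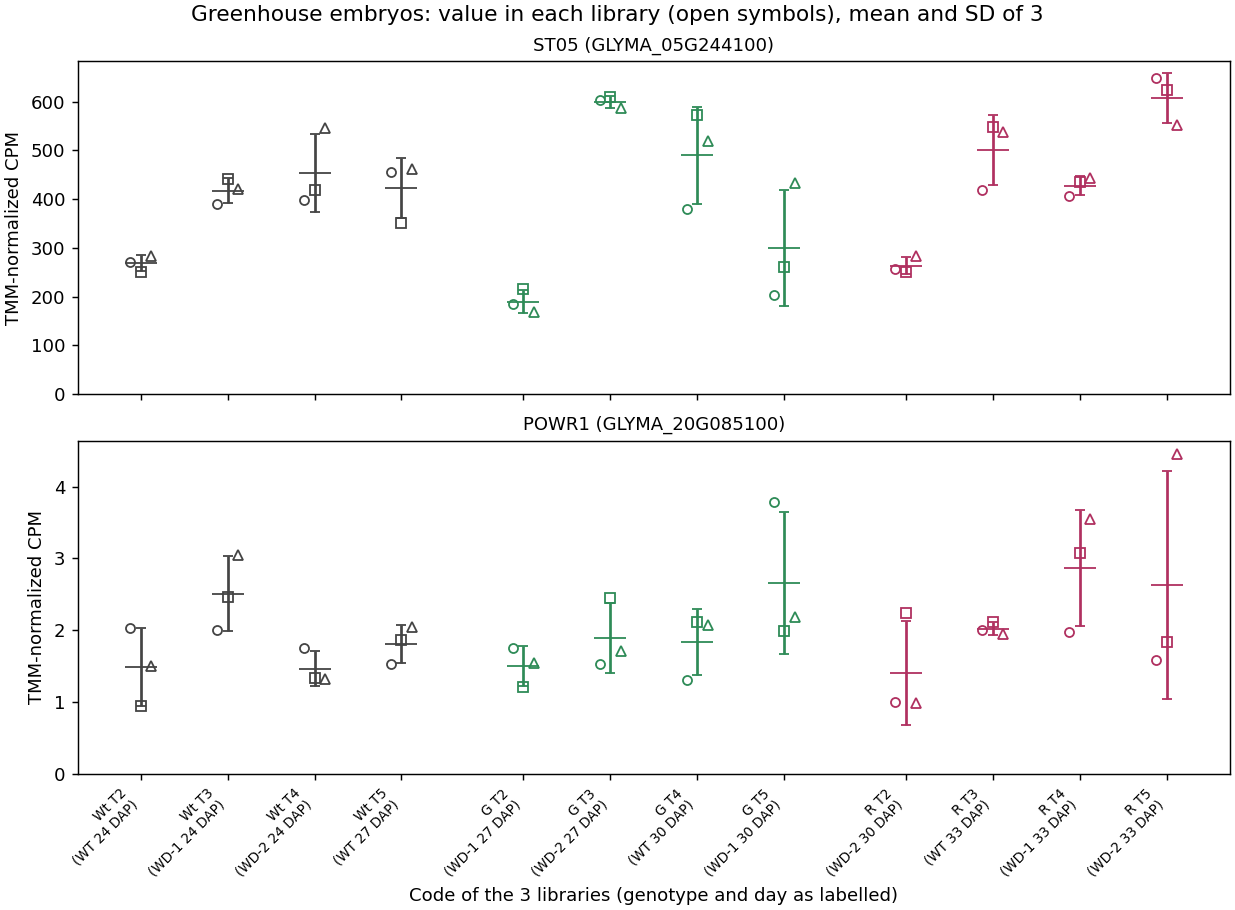
TMM-normalized CPM of ST05 (top) and POWR1 (bottom) in each greenhouse library, by table code with the labelled genotype and day in brackets; replicates 1, 2 and 3 are circle, square and triangle, and bars give the mean and SD of 3 libraries. ST05 is lowest at T2 in each code, with group means of 269, 190 and 263, and POWR1 libraries lie between 0.939 and 4.45, with overlap between neighbours in the order of its group means.

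The direction of ST05 in R against Wt depended on the scaling. The coded R libraries had TMM factors of 0.344 to 1.32, against 1.10 to 1.68 in Wt and 1.04 to 2.03 in G, and their 10 highest genes held a median of 71.8% of all counts, against 33.8% and 31.2%. In CPM of all counts ST05 (GLYMA_05G244100) therefore read as low as 91.7 in R T2, where the TMM-normalized value was 257. Without scaling, R against Wt over times turned to -0.98 for ST05 (adjusted p = 1.03e-05) and to -1.03 for POWR1 (GLYMA_20G085100; adjusted p = 4.12e-05), while the median of all genes moved to -1.25. Relative to that median ST05 was higher by 0.26 and POWR1 by 0.22. Without scaling 1075 genes were called higher and 29,855 lower, against 9628 and 11,302 with it. At T5 the unscaled ST05 difference of R from Wt was -0.092, with a median of all genes of -0.67, and the R against G difference fell to 0.15 (adjusted p = 0.734), with a median of -0.92. The changes along Wt and G that passed kept their direction without scaling, and of these only the G rise from T2 to T3 still passed (1.07, adjusted p = 0.0450). In R the rise from T2 to T3 was 1.24 without scaling and did not pass (adjusted p = 0.238). The part that the few dominant genes play in these differences was not tested.

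**Figure D5:**
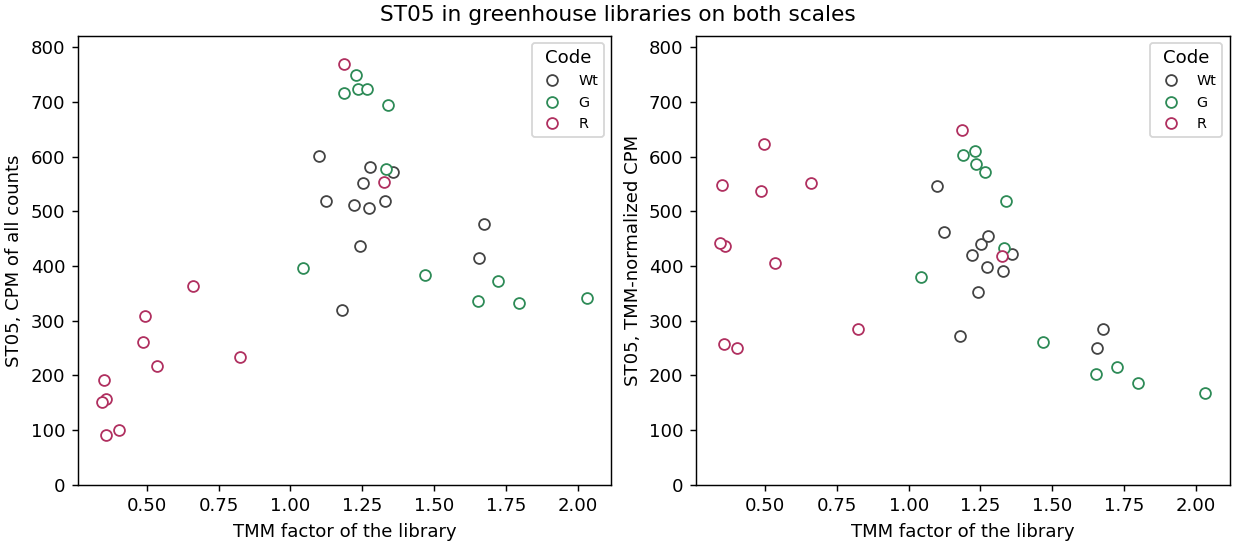
ST05 in the 36 greenhouse libraries as CPM of all counts (left) and as TMM-normalized CPM (right) against the TMM factor of the library (x axis), coloured by table code. The 10 R libraries with the lowest factors, up to 0.825, have unscaled values of 91.7 to 364 and scaled values of 250 to 623.

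Taken by the labels, the same libraries gave ST05 differences of both signs. Libraries labelled WD-1 differed from those labelled WT by 0.64 at 24 DAP (adjusted p = 0.0273), the same 6 libraries as coded Wt T3 against T2. At 27 DAP they were 2.23-fold lower (log2 -1.16, SE 0.20, adjusted p = 1.52e-05; 40.4% of genes passed) and at 30 DAP lower by a log2 of -0.71 (the coded G T5 against T4 comparison), while the 33 DAP difference was -0.23, the coded R T4 against T3 comparison. Over the 4 days ST05 (GLYMA_05G244100) was lower in libraries labelled WD-1 by -0.37 (SE 0.10, adjusted p = 0.0326; 3.38% passed). That call was lost on leaving out any 1 of 12 of the 24 libraries, with values from -0.37 to -0.31 and adjusted p from 0.0506 to 0.0690. These were the libraries labelled WT at 24 DAP (replicates 1 and 3), 27 DAP (1 and 3), 30 DAP (2) and 33 DAP (3), and WD-1 at 24 DAP (1 and 3), 27 DAP (1), 30 DAP (1 and 2) and 33 DAP (1). Libraries labelled WD-2 were 1.69-fold higher at 24 DAP (log2 0.76, SE 0.20, adjusted p = 0.00405; 25.1% passed) and 1.86-fold lower at 30 DAP (log2 -0.90, SE 0.20, adjusted p = 0.00160; 17.7% passed). Without scaling, the WD-1 difference at 27 DAP was -0.55 (adjusted p = 0.282) and the WD-2 difference at 24 DAP 0.42 (0.607). Libraries labelled WD-2 differed from WT by 0.50 at 27 DAP (adjusted p = 0.0568; 24.3% passed; 0.0316 by the DESeq2 test, 0.0128 with the compared libraries alone), by 0.28 at 33 DAP, where 0% passed by edgeR, 3966 genes had an unadjusted p under 0.05 and DESeq2 called 68, and by 0.16 over days (adjusted p = 0.425; 3.71% passed).

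POWR1 (GLYMA_20G085100) stayed within 0.939 to 4.45 TMM-normalized CPM in the 36 greenhouse libraries, and its group means spanned 2.04-fold. The highest mean was 2.86 ± 0.811 (SD, n = 3) in R T4, where the libraries read 1.97, 3.07 and 3.55. The lowest was 1.40 ± 0.718 in R T2, with 0.997, 2.23 and 0.982. In the order of the 12 group means all 11 neighbouring pairs overlapped, whereas for ST05 9 of 11 did, with gaps below G T3 (600 ± 12.3) and above G T2 (190 ± 24.0). In Wt the POWR1 libraries read 2.03, 0.939 and 1.50 at T2, 2.00, 2.47 and 3.05 at T3, 1.75, 1.33 and 1.32 at T4 and 1.52, 1.86 and 2.04 at T5. No step within Wt passed, the log2 changes being 0.74 from T2 to T3 (adjusted p = 0.122), -0.76 from T3 to T4 (adjusted p = 0.283) and 0.32 from T2 to T5 (adjusted p = 0.472). In G it read 1.76, 1.21 and 1.54 at T2 and 3.79, 1.99 and 2.18 at T5, where the T5 libraries lay above those of T2. That rise of 1.84-fold (log2 0.88, SE 0.29, adjusted p = 0.0229; 24.6% of genes passed) was lost without G T2 replicate 2 (0.76, 0.0915), G T2 replicate 3 (0.90, 0.0564) or G T5 replicate 1 (0.48, 0.322), with the compared libraries alone (0.85, 0.0770) and without scaling (0.56, 0.444). At T4 R was 1.94-fold higher than Wt (log2 0.95, SE 0.35, adjusted p = 0.0295; 40.9% of genes passed), and this was lost without Wt T4 replicate 2 (0.89, 0.0819) or 3 (0.89, 0.0846) or R T4 replicate 2 (0.91, 0.0789) or 3 (0.81, 0.114), and turned to -0.61 without scaling, or 0.96 above the median of all genes. The remaining coded comparisons of POWR1 did not pass, among them R from T2 to T5 (0.58, adjusted p = 0.352). Of the 10 labelled comparisons of POWR1, in which 0% to 40.4% of all genes passed, 0 passed by edgeR or DESeq2 and 2 had an unadjusted p under 0.05, for libraries labelled WD-1 against WT over days (0.38, adjusted p = 0.198) and at 24 DAP (0.74, adjusted p = 0.122).

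ST05 and POWR1 did not follow each other, with a Pearson r of their log2 levels of -0.28 over the 27 field libraries and 0.22 over the 36 greenhouse libraries. Among 34,222 genes measured in both experiments, those most like ST05 over the field libraries were GLYMA_13G363300 (r = 0.98) and GLYMA_10G174400 (r = 0.98), with r of 0.47 and 0.61 in the greenhouse. GLYMA_10G174400 ran from 9.70 to 966 TMM-normalized CPM in the field and GLYMA_13G363300 from 60.2 to 1758. Those most like POWR1 were GLYMA_07G240900 (r = 0.88) and GLYMA_14G071400 (r = 0.87), with r of 0.42 and 0.29 in the greenhouse, where they ranked 690 and 2479 by likeness. In the field GLYMA_07G240900 ran from only 0 to 8.64 TMM-normalized CPM and GLYMA_14G071400 from 0 to 70.7. GLYMA_07G240900 was at 0 in WT R6 replicates 1 and 2 and WD-1 R6 replicate 1, where POWR1 was also at 0. The values of r describe libraries that share stages and depth, and they rank genes only within these experiments. Of the 5 identifiers on each side of POWR1, 4 of 10 were tested, and of those around ST05, 9 of 10. Averaged over stages, 0 of these neighbours passed by edgeR or DESeq2 for W-1 against WT (2.53% of all genes passed), WD-1 against WT (3.05%) or WD-1 against W-1 (0.555%), and at such shares a count of 0 among so few genes is near the background. Around ST05 1 had an unadjusted p under 0.05 in W-1 against WT and 1 in WD-1 against W-1.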

How the data were processed

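The authors deposited a table of estimated counts of reads per gene for each library, without normalization, per the file headers. Per the submitters' processing notes the tools were kallisto 0.43.1, sleuth 0.30.0, FastQC 0.11.5 and R 3.6.3, with no role stated. The genome build and annotation, and how transcripts were summed to genes, were not given in the sources used here. Groups came from the labels. The greenhouse codes are in the names of the deposited tables, and contrasts between codes use the same fit as those between labels.

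Estimated counts were rounded to whole numbers and tested with edgeR 4.0.16 in R 4.3.3 (filterByExpr, TMM, 2-sided quasi-likelihood F-test, Benjamini-Hochberg over all genes, threshold 0.05). A model of 9 groups held the 27 field libraries (38,914 genes), and a model of 12 groups held the 36 greenhouse libraries (34,548 genes). The 3 replicates of a group were separate plots or plants, and the scripts were tested on simulated counts. Alternatives were no scaling, DESeq2 size factors, the DESeq2 1.42.0 test, no filter, libraries of at least 10 M, the compared libraries alone, a replicate block and leaving out each library. Likeness is Pearson's r of log2(TMM-normalized CPM + 1), with Spearman's rho as the alternative. Limits for a count of 0 (3 counts of the total) cover counting error only.

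The members, lists and rules were chosen with earlier results of these data known. The steps between neighbouring times within G and R, and R against G at T5, were added after values of these data were seen. The named genes are both members, the transgenes and the 2 genes most like each member over the field libraries. The reference table for names matched none of the identifiers, so gene family, marker and pathway lists were not applied, the tissue labels were not checked against markers, and sequences and positions are not given here.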

Additional observations from a re-analysis of the deposited data

Results flagged for a closer look

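ST05 (GLYMA_05G244100) differed between the coded G and R embryos at T5, in a comparison added after values of these data were seen. R and G were not compared at the other times, and the adjusted p below does not allow for that choice. R exceeded G by 1.02 on the log2 scale (SE 0.20, adjusted p = 0.000403, edgeR), with the 3 R libraries at 551 to 649 TMM-normalized CPM and the 3 G libraries at 203 to 432. Among these G libraries, replicate 2 (ST05 at 262) held no transgene read. The difference was 0.15 without scaling (adjusted p = 0.734). Against Wt at T5, G differed by -0.50 and R by 0.52, the latter turning to -0.092 without scaling, and each of these calls was lost in 4 of 6 fits that left out 1 library and with the compared libraries alone. The labels call the same libraries WD-2 at 33 DAP and WD-1 at 30 DAP, and the meaning of the codes is not given in the sources used here.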

How the results depend on the processing

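Under other settings, 1590 of 1694 values of ST05 (GLYMA_05G244100) and POWR1 (GLYMA_20G085100) kept their side of the threshold. Of these, the ones past it also kept their direction. A further 80 were no longer past it, 20 came to pass it and 4 reversed. The 1590 include values that missed the threshold both times, so they do not give the share of calls kept. The ST05 call for G against Wt at T5 was lost in 4 of 7 other settings and 4 of 6 fits without 1 library. The ST05 rise in G from T2 to T3 was lost in 0 of 7 and 0 of 6. A comparison of the same libraries by label and by code was counted under both names. A reversal was counted only where the main value or the alternative passed. Changes of sign between values that both missed the threshold were not counted, such as POWR1 in W-1 from R5 to R6 (1.04, and -0.11 without scaling). All 4 reversals counted in this way came without scaling, for R against Wt: POWR1 -1.03 and ST05 -0.98 over times, POWR1 -0.61 at T4 and ST05 -0.092 at T5. The rise of ST05 from R5 to R6 had log2 values from 1.06 to 3.43 over all alternatives and genotypes. It passed in each genotype under every alternative, leaving aside libraries of at least 10 M. That setting keeps a single R6 library in WT and in WD-1. POWR1 from R5 to R6 came to pass without scaling in WT (-2.51) and WD-1 (-2.21). In WD-1 it was -3.44 with libraries of at least 10 M. It ran from -3.46 to -0.45 in WD-1 when 1 library was left out. ST05 in libraries labelled WD-1 against WT over days no longer passed without scaling (-0.38), with libraries of at least 10 M (-0.37) or with the compared libraries alone (-0.36), and ran from -0.46 to -0.31 when 1 library was left out. ST05 in Wt from T2 to T5 no longer passed without scaling (0.34), and ran from 0.57 to 0.77 when 1 library was left out. The cause of these shifts was not tested. DESeq2 size factors changed 0 of 112 calls and the DESeq2 test 3 of 111, each of which came to pass. DESeq2 gave no adjusted p for POWR1 in libraries labelled WD-2 against WT at 33 DAP, and POWR1 in WD-1 against WT at R6 was removed by the filter when those libraries were compared alone. By Spearman's rho the genes named as most like the members ranked 3, 7, 145.5 and 28, in the order GLYMA_07G240900, GLYMA_14G071400, GLYMA_13G363300 and GLYMA_10G174400.

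Replicate numbers were not used to pair the samples in the main fits. Same-numbered field libraries had a median correlation of their deviations of -0.005 over 108 pairs (-0.23 to 0.39; over 0.1 in 18). For greenhouse libraries it was 0.017 over 198 pairs (-0.42 to 0.65; over 0.1 in 53). Libraries of other numbers had medians of -0.004 and -0.009. A median over all pairs cannot decide whether some groups were paired. With the replicate block 110 of 112 calls were as before, and 2 for ST05 (GLYMA_05G244100) came to pass, libraries labelled WD-2 at 27 DAP (0.50, adjusted p = 0.0451) and G against Wt at T3 (0.53, adjusted p = 0.0408). POWR1 had fewer than 10 counts in 11 field libraries, and its field values moved by over 1.5 times on leaving out single libraries, as given beside them.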
